A study of Homo sapiens with 6 samples.

Results

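The mitotic spindle and checkpoint genes described here are 39 genes, taken by symbol from a list of kinases, cyclins, checkpoint proteins, kinetochore proteins, motors and cytokinesis factors. All 39 were found among the 61806 genes of the deposited table, and 38 of them were among the 12550 genes expressed highly enough to test. RNA was sequenced from HEK293, an established human line of embryonic kidney origin, in 2 groups. The mutant group held 3 libraries of cells edited by CRISPR with homology-directed repair to carry rs16851030, a variant of ADORA1, the adenosine A1 receptor gene. The wild-type group held 3 libraries of wild-type cells of the same line, and no drug or time course is given for either group. The sources used here do not give whether the mutant cells were 1 clone, several clones or a pool.

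When a cell enters mitosis, cyclin-dependent kinase bound to cyclin B is switched on by CDC25 phosphatases, and the duplicated chromosomes condense and attach to spindle microtubules at their kinetochores. The spindle assembly checkpoint holds back the anaphase-promoting complex, a ubiquitin ligase, until every kinetochore is attached. The ligase then marks cyclin B and securin for destruction, sister chromatids part, and the central spindle guides the cleavage of the cell. In cycling cells most transcripts of this machinery are made in the G2 phase and in mitosis, and many of their promoters carry CCAAT boxes, bound by the factor NF-Y, and the cell cycle genes homology region (CHR), bound by the DREAM complex in resting cells and by MYBL2 with its partners in cycling cells.

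Among the mitotic genes, 24 of 38 tested were lower in mutant cells (63.2%), against 28.7% of all tested genes, and 3 of 38 were higher (7.89%), against 29.4% of all tested genes. The remaining 11 did not pass the test, which was edgeR's quasi-likelihood test with Benjamini-Hochberg adjustment over all tested genes and a threshold of 0.05. The 2 groups differed over much of the transcriptome, with 58.0% of all tested genes passing in either direction. The differences in the mitotic genes were small in size. Their median log2 fold change, mutant over wild-type, was -0.20, against -0.000708 for all tested genes, and 3 members were at least 1.5-fold lower while none reached 2-fold. All 3 mutant FPKM values lay below all 3 wild-type values for 23 members, where 28.1% of all tested genes did so, and above them for 3 members, where 34.8% did so. FPKM is the count of sequenced fragments scaled to exon length and library size. The libraries are bulk RNA, so fewer cells in mitosis and less of these transcripts in each cell cannot be told apart.

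The libraries held between 16013460 and 20349609 assigned counts. CCNA2, CDC25C, CENPA, NUF2, KIF2C, NUSAP1, PRC1, KIF20A and ANLN overlap another gene with 60 or more counts over the 6 libraries. Reads there could have been split between the genes or left uncounted, so their values are less certain. Overlapping genes with fewer counts were not listed by that rule. BUB1B, for example, overlaps PAK6 on the same strand, which had 38 counts. Libraries of a group varied by a median of 3.04% of the mean FPKM over the members in mutant cells and 3.84% in wild-type cells. The members together took 0.610%, 0.612% and 0.621% of all counts in the mutant libraries, against 0.678%, 0.709% and 0.679% in the wild-type libraries. ADORA1 itself had 0.56, 0.65 and 0.51 FPKM in mutant cells and 0.59, 0.41 and 0.44 FPKM in wild-type cells, and a count for the whole gene does not check the edit. Of 8 markers of HEK293, 7 were expressed highly enough to test and 1, PAX2, was not, at 0.26, 0.17 and 0.27 FPKM in mutant cells and 0.09, 0.04 and 0.16 FPKM in wild-type cells. Of the 7, 5 were lower and 1 was higher in mutant cells, with HOXA9 at a mean of 17.23 FPKM in mutant cells and 39.95 FPKM in wild-type cells, and the part of such differences between the cultures in the results below was not tested. None of 11 markers of blood, connective tissue, endothelium, liver and keratinocytes was expressed highly enough to test, and their summed level was 0.52 to 0.65 FPKM in mutant libraries and 0.51 to 0.58 FPKM in wild-type libraries.

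The promoter windows of 4 members are printed because all 4 hold CCAAT boxes, and all but CCNB1 a CHR match, while their results differed: CDC20 and CCNB1 were among the largest decreases, CCNB2 did not pass the test, and TOP2A was higher. Each window runs from 250 bases before to 50 bases after a RefSeq start site on GRCh38.p14, written 5′ to 3′ on the gene's strand. Capitals mark CCAAT boxes (CCAAT or, on the other strand, ATTGG) and CHR matches (TTTGAA or, on the other strand, TTCAAA). Other spellings of the CHR were not searched, so a window without a match, such as that of CCNB1, is not shown to lack the element.
CDC20 (chr1:43358731-43359030, plus strand): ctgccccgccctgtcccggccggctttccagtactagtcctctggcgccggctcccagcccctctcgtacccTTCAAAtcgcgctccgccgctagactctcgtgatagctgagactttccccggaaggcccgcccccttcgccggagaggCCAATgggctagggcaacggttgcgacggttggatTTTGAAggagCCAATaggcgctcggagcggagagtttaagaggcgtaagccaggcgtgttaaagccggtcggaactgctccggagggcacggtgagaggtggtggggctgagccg
CCNB1 (chr5:69166900-69167199, plus strand): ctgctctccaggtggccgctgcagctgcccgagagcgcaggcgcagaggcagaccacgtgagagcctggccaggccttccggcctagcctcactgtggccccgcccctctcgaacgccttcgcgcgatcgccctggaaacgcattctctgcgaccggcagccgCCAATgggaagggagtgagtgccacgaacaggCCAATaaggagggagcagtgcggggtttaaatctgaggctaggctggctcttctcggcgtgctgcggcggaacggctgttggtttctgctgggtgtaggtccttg
CCNB2 (chr15:59104896-59105195, plus strand): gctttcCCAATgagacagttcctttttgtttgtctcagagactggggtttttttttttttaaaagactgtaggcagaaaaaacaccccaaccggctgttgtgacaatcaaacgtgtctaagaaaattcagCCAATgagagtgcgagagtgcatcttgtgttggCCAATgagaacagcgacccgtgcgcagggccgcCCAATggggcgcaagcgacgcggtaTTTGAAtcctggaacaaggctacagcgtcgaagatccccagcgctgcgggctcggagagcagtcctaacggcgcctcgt
TOP2A (chr17:40417847-40418146, minus strand): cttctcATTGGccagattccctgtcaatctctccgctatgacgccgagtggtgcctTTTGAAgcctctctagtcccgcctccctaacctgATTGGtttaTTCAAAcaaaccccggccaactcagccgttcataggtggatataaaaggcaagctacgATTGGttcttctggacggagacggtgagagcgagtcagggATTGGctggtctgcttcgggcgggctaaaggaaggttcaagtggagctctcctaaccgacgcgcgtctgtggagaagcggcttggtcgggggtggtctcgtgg

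RefSeq windows were matched by symbol for 33 of the 39 members, with the farthest upstream window used where a gene had several. BUB3, TTK, AURKA, BIRC5, UBE2C and TPX2 were not matched. A CHR match was found in 22 of the 33 windows (66.7%), against 9.19% of the windows of 9167 tested genes and 15.5% of all 27305 windows. A CCAAT box was found in 25 windows (75.8%), against 38.1% for tested genes and 35.7% for all. At least 2 boxes were found in 16 windows (48.5%), against 14.7% and 11.3%. Both elements were present in 18 windows (54.5%), against 4.04% and 6.13%. In 1 case a CHR match overlapped a CCAAT box. These are matches of letters and not measured binding.

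The calls were also counted by match, beside 28.7% of all tested genes called lower and 29.4% called higher. BUB3, TTK, AURKA, BIRC5, UBE2C and TPX2, all called lower, had no window and are outside these counts. Of 21 tested members with a CHR match, 11 were lower, 3 higher and 7 not called, with a median log2 fold change of -0.16. Of 11 tested members without one, 7 were lower, none higher and 4 not called, and their median was also -0.16. This split rests on an exact spelling in the farthest upstream window, so it cannot part members that have the element from those that lack it. Of 24 with a CCAAT box 13 were lower and 2 higher, and of 8 without one 5 were lower and 1 higher. The window of CDC25B, the member with the lowest fold change, had no match to either element, as was also so for CDC25C, CENPE and KIF2C. CCNB2 and TOP2A each held 4 CCAAT boxes, and CCNB1 and CDC20 held 2 each.

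Position was also counted in ranges chosen after the matches were seen. A CCAAT box began 110 to 40 bases upstream of the start site in 21 member windows (63.6%), against 21.3% of tested genes' windows and 16.6% of all windows. A CHR match began within 60 bases upstream in 13 member windows (39.4%), against 1.59% and 3.0%. Because the ranges were drawn from these positions, the shares are a description.

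Of the 8 genes that drive entry into mitosis, 5 were lower in mutant cells (62.5%, against 28.7% of all tested genes) and 3 did not pass. CDC25B, a phosphatase that starts the activation of CDK1, was measured at 12.34, 12.80 and 11.82 FPKM in mutant cells and at 23.55, 23.80 and 22.94 FPKM in wild-type cells. The groups were far apart and the libraries of each group lay close together. Its log2 fold change was -0.96 ± 0.05 (SE, n = 3 each), with an edgeR adjusted p of 1.31e-10. CDC25C, a phosphatase of the same family, stood at 8.27, 8.57 and 8.12 FPKM in mutant cells and 8.36, 8.76 and 8.02 FPKM in wild-type cells. Here the groups overlapped, and the 95% interval of its log2 fold change ran from -0.20 to 0.11.

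CCNB1 encodes cyclin B1, the main partner of CDK1 at mitotic entry, and had the highest mean FPKM of the members in wild-type cells, at 119.4 ± 5.20, within the spread of TOP2A at 118.6 ± 3.51 (SD, n = 3 each). It had 78.55, 83.28 and 75.74 FPKM in mutant cells, against 113.7, 120.5 and 123.9 FPKM in wild-type cells. Every mutant library lay below every wild-type library, and the log2 fold change was -0.62 ± 0.05 (SE; edgeR adjusted p = 4.42e-09). CCNB2, the gene of cyclin B2, had 27.19, 29.61 and 29.47 FPKM in mutant cells, against 27.90, 30.00 and 31.64 FPKM in wild-type cells. These groups overlapped, and the interval of the log2 fold change was -0.21 to 0.03 (edgeR adjusted p = 0.199, and 0.0381 when wild-type replicate 1 was left out). The ratio of CCNB1 to CCNB2 FPKM, set side by side after the values were seen, was 2.89, 2.81 and 2.57 in mutant libraries and 4.07, 4.02 and 3.92 in wild-type libraries.

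CDK1, the kinase itself, fell to 46.02, 43.54 and 46.17 FPKM in mutant cells, against 52.95, 54.78 and 55.27 FPKM in wild-type cells. CCNA2, which encodes cyclin A2 and acts in S phase and up to early mitosis, had 72.69, 75.57 and 73.13 FPKM in mutant cells and 87.09, 87.29 and 88.59 FPKM in wild-type cells. Both genes had separate groups, with log2 fold changes of -0.30 for CDK1 and -0.28 for CCNA2 and edgeR adjusted p-values of 8.63e-06 and 8.77e-06. PLK1, a kinase of centrosome maturation and mitotic entry, had 37.42, 38.46 and 37.91 FPKM in mutant cells and 39.54, 43.92 and 43.73 FPKM in wild-type cells. Its log2 fold change of -0.19 was smaller and still passed (edgeR adjusted p = 0.00172). NEK2, a kinase that parts the centrosomes, averaged 27.2 ± 1.04 FPKM in mutant cells and 27.0 ± 0.47 FPKM in wild-type cells (SD, n = 3 each), with an interval of -0.13 to 0.08 on the log2 scale.

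**Figure D1:**
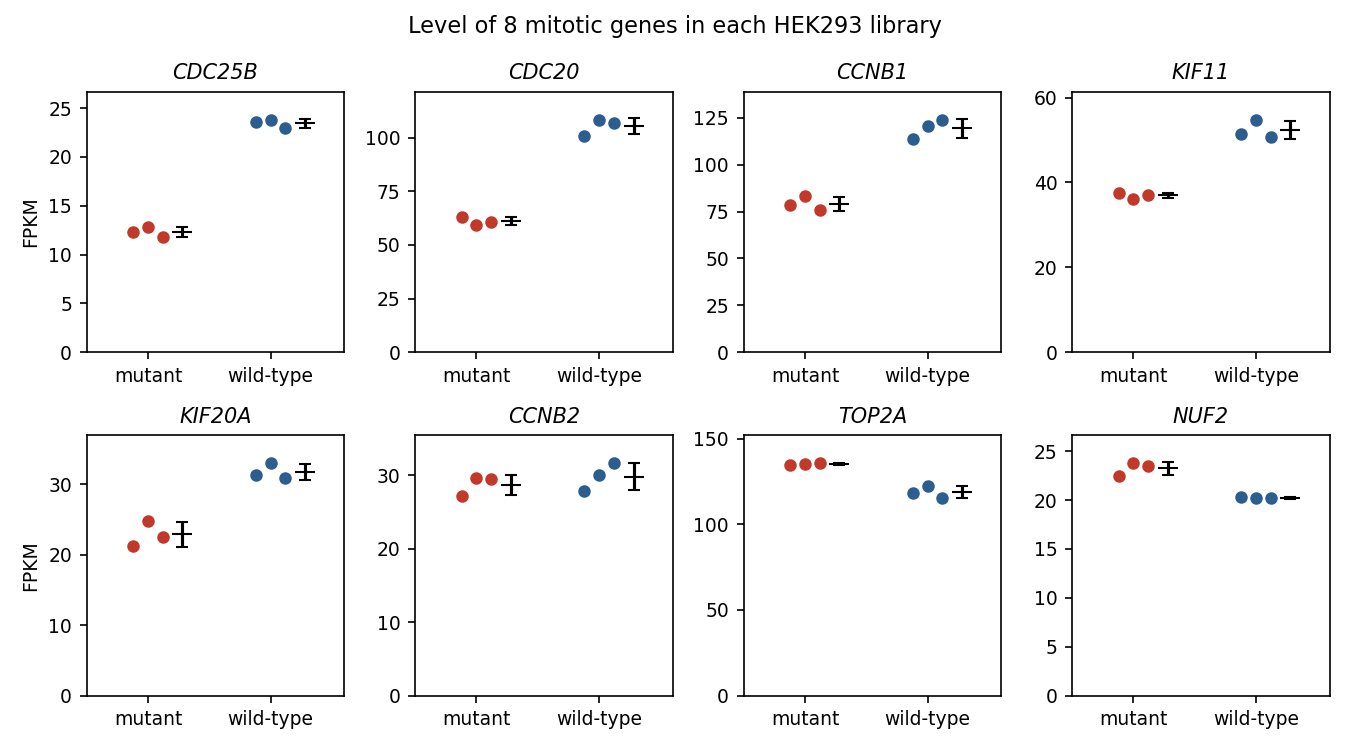
FPKM of 8 members in each library, mutant on the left and wild-type on the right, with the mean and SD of 3 libraries beside the points. CDC25B, CDC20, CCNB1, KIF11 and KIF20A lie lower in every mutant library, CCNB2 overlaps, and TOP2A and NUF2 lie higher.

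Among the 5 genes of the spindle assembly checkpoint, 4 were lower and 1 was higher in mutant cells. Of all tested genes 28.7% were lower and 29.4% higher. In all 5 checkpoint genes the groups were separate, 4 with the mutant libraries below and 1 with them above. Separate groups were common in these data, with 28.1% of all tested genes below and 34.8% above. BUB3, which brings the BUB1 and BUB1B proteins to kinetochores, had 33.39, 33.90 and 33.61 FPKM in mutant cells and 42.37, 41.75 and 41.43 FPKM in wild-type cells. Its log2 fold change was -0.35 ± 0.04 (SE; edgeR adjusted p = 3.97e-07). BUB1B, the gene of the inhibitor BUBR1, and TTK, the kinase that starts checkpoint signalling, had log2 fold changes of -0.22 and -0.21. BUB1, a kinetochore kinase, had -0.14, with an edgeR adjusted p of 0.00893.

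MAD2L1 encodes MAD2, the protein that binds and holds CDC20 while kinetochores are unattached. Its level was 41.95, 43.61 and 43.88 FPKM in mutant cells, against 35.30, 41.05 and 36.34 FPKM in wild-type cells. Wild-type replicate 2 came close to the mutant libraries without reaching them. The log2 fold change was 0.17 ± 0.05 (SE; edgeR adjusted p = 0.0107), in the opposite direction to the other checkpoint genes. The ratio of MAD2L1 to BUB1B FPKM, also chosen after the values were seen, was 1.69, 1.80 and 1.79 in mutant libraries and 1.32, 1.42 and 1.29 in wild-type libraries.

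Of the 4 genes that control anaphase, 3 were lower in mutant cells and 1 did not pass. Among all tested genes 28.7% were lower and 29.4% higher. CDC20, the activator of the anaphase-promoting complex and the target of the checkpoint, had 63.16, 59.52 and 60.68 FPKM in mutant cells, against 101.0, 108.3 and 107.0 FPKM in wild-type cells. No library of one group came near the other group. Its log2 fold change was -0.82 ± 0.04 (SE; edgeR adjusted p = 9.95e-11), a level 43.3% lower in mutant cells.

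UBE2C, the enzyme that passes ubiquitin to the complex, had 56.63, 56.49 and 54.92 FPKM in mutant cells and 68.49, 68.32 and 71.89 FPKM in wild-type cells, a log2 fold change of -0.34 with an edgeR adjusted p of 9.68e-06. PTTG1, the gene of securin, had a smaller log2 fold change of -0.16, with an edgeR adjusted p of 0.0201. That call was lost when mutant replicate 1 (adjusted p = 0.122) or wild-type replicate 3 (adjusted p = 0.105) was left out. ESPL1, the protease separase that cuts cohesin, averaged 14.8 ± 0.42 FPKM in mutant cells and 15.4 ± 0.67 FPKM in wild-type cells (SD, n = 3 each). Its groups overlapped, with an interval of -0.19 to 0.01 on the log2 scale, and it passed when wild-type replicate 3 was left out (edgeR adjusted p = 0.0406).

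Of the 6 genes of the centromere and outer kinetochore, 2 were lower (33.3%), 1 was higher (16.7%) and 3 did not pass. The share called lower was near the 28.7% of all tested genes, and 29.4% of those were higher. The median log2 fold change was -0.10. NDC80 and NUF2 encode a pair of proteins that bind each other in the complex that grips microtubules, and they differed in direction. NUF2 had 22.45, 23.75 and 23.53 FPKM in mutant cells, against 20.36, 20.17 and 20.21 FPKM in wild-type cells. NDC80 had 11.21, 11.75 and 12.14 FPKM in mutant cells, against 13.68, 12.76 and 13.00 FPKM in wild-type cells.

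The groups were separate for both genes. The log2 fold changes were 0.17 ± 0.05 for NUF2 and -0.20 ± 0.06 for NDC80 (SE; edgeR adjusted p = 0.00948 and 0.00978). The NDC80 call was lost when mutant replicate 1 was left out (adjusted p = 0.0531). NUF2 overlaps RGS5 on the other strand, and the sources used here do not say whether reads were counted by strand. The NUF2 to NDC80 ratio, picked after the values were seen, was 2.00, 2.02 and 1.94 in mutant libraries and 1.49, 1.58 and 1.55 in wild-type libraries.

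KIF2C, a motor that depolymerises microtubules at kinetochores, was lower in mutant cells at 21.3 ± 0.90 FPKM, against 23.6 ± 0.20 FPKM in wild-type cells (SD, n = 3 each), a log2 fold change of -0.18 (edgeR adjusted p = 0.0055). CENPA, the histone variant that marks the centromere, CENPE, a kinetochore motor, and CENPF, a large kinetochore protein, had overlapping groups. Their intervals on the log2 scale were -0.25 to 0.07 for CENPA, -0.19 to 0.08 for CENPE and -0.23 to 0.02 for CENPF. CENPE passed without wild-type replicate 1 (edgeR adjusted p = 0.0455) and CENPF without wild-type replicate 3 (edgeR adjusted p = 0.00685).

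The chromosomal passenger complex corrects wrong attachments, and its kinase, scaffold and a targeting subunit are members. BIRC5, the targeting subunit survivin, had 66.99, 67.67 and 66.03 FPKM in mutant cells and 76.92, 77.42 and 80.39 FPKM in wild-type cells, a log2 fold change of -0.26 (edgeR adjusted p = 1.76e-05). INCENP, the scaffold, was lower by a smaller amount, at -0.13 (edgeR adjusted p = 0.0115, and 0.0501 without mutant replicate 3). AURKB, the kinase, had 41.03, 45.49 and 41.21 FPKM in mutant cells and 39.43, 42.75 and 42.23 FPKM in wild-type cells. Its groups overlapped, and the interval of -0.11 to 0.12 lay on both sides of 0.

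Of the 6 genes of spindle assembly, 5 were tested, and 4 of these were lower in mutant cells (80.0%, against 28.7% of all tested genes). KIF11, the motor that slides spindle poles apart, had 37.53, 36.21 and 37.14 FPKM in mutant cells and 51.45, 54.76 and 50.77 FPKM in wild-type cells. The groups were well separated, with a log2 fold change of -0.53 ± 0.04 (SE; edgeR adjusted p = 1.04e-08). AURKA, the kinase of spindle poles, had 37.16, 36.56 and 37.26 FPKM in mutant cells and 42.47, 46.99 and 43.87 FPKM in wild-type cells. TPX2, which activates AURKA, had 88.33, 91.67 and 93.42 FPKM in mutant cells and 104.3, 110.5 and 108.6 FPKM in wild-type cells.

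AURKA and TPX2 differed by like amounts, with log2 fold changes of -0.30 and -0.28. DLGAP5, which stabilises microtubules near chromosomes, had -0.30 as well. HMMR, a microtubule and hyaluronan binding protein, had overlapping groups and an interval of -0.04 to 0.17. NUSAP1, a protein that bundles spindle microtubules, was below the level needed to test, at 0.78, 0.86 and 1.00 FPKM in mutant cells and 1.45, 0.85 and 0.86 FPKM in wild-type cells. It overlaps OIP5 on the other strand and, over most of its length, a gene of the same strand that had 0 counts in all 6 libraries, and in a fit with no filter its interval was -0.73 to 0.04 on the log2 scale.

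Among the 5 genes of the central spindle and cytokinesis, 3 were lower in mutant cells and 2 did not pass. Of all tested genes 28.7% were lower and 29.4% higher. The median log2 fold change of these 5 genes, -0.37, was the lowest of the role groups. KIF20A, a motor that carries the passenger complex to the midzone, had 21.28, 24.81 and 22.57 FPKM in mutant cells and 31.33, 32.97 and 30.87 FPKM in wild-type cells. The log2 fold change was -0.51 ± 0.06 (SE; edgeR adjusted p = 6.24e-07). KIF23, the motor subunit of centralspindlin, had 14.01, 13.77 and 13.07 FPKM in mutant cells and 17.19, 19.09 and 17.85 FPKM in wild-type cells.

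KIF23 had a log2 fold change of -0.44, and ANLN, the actin-binding scaffold of the contractile ring, had -0.37, with separate groups for both. ECT2, the exchange factor that turns on RHOA at the cleavage site, averaged 32.7 ± 0.49 FPKM in mutant cells and 33.3 ± 0.87 FPKM in wild-type cells (SD, n = 3 each), and its interval was -0.15 to 0.03. PRC1, which bundles the midzone microtubules, had a log2 fold change of -0.16 with an interval of -0.31 to -0.01. Its edgeR adjusted p was 0.0676, and 0.047 when mutant replicate 1 was left out. PRC1 overlaps another gene of the same strand over 29440 bases, so its level is less certain.

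The 2 genes of chromosome structure went in opposite directions. TOP2A, the topoisomerase that untangles sister chromatids, had 134.4, 135.1 and 135.5 FPKM in mutant cells, against 118.5, 122.1 and 115.1 FPKM in wild-type cells. It was the most abundant member in mutant cells, and its log2 fold change was 0.15 ± 0.04 (SE; edgeR adjusted p = 0.00205). MKI67, the coat protein of mitotic chromosomes and a common proliferation marker, had 25.31, 22.35 and 25.21 FPKM in mutant cells and 27.80, 29.78 and 24.21 FPKM in wild-type cells. Wild-type replicate 3 lay below 2 of the mutant libraries, so the groups overlapped. The log2 fold change of -0.20 passed (edgeR adjusted p = 0.0108), but not without mutant replicate 2 (adjusted p = 0.0773) or wild-type replicate 2 (adjusted p = 0.0786).

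**Figure D2:**
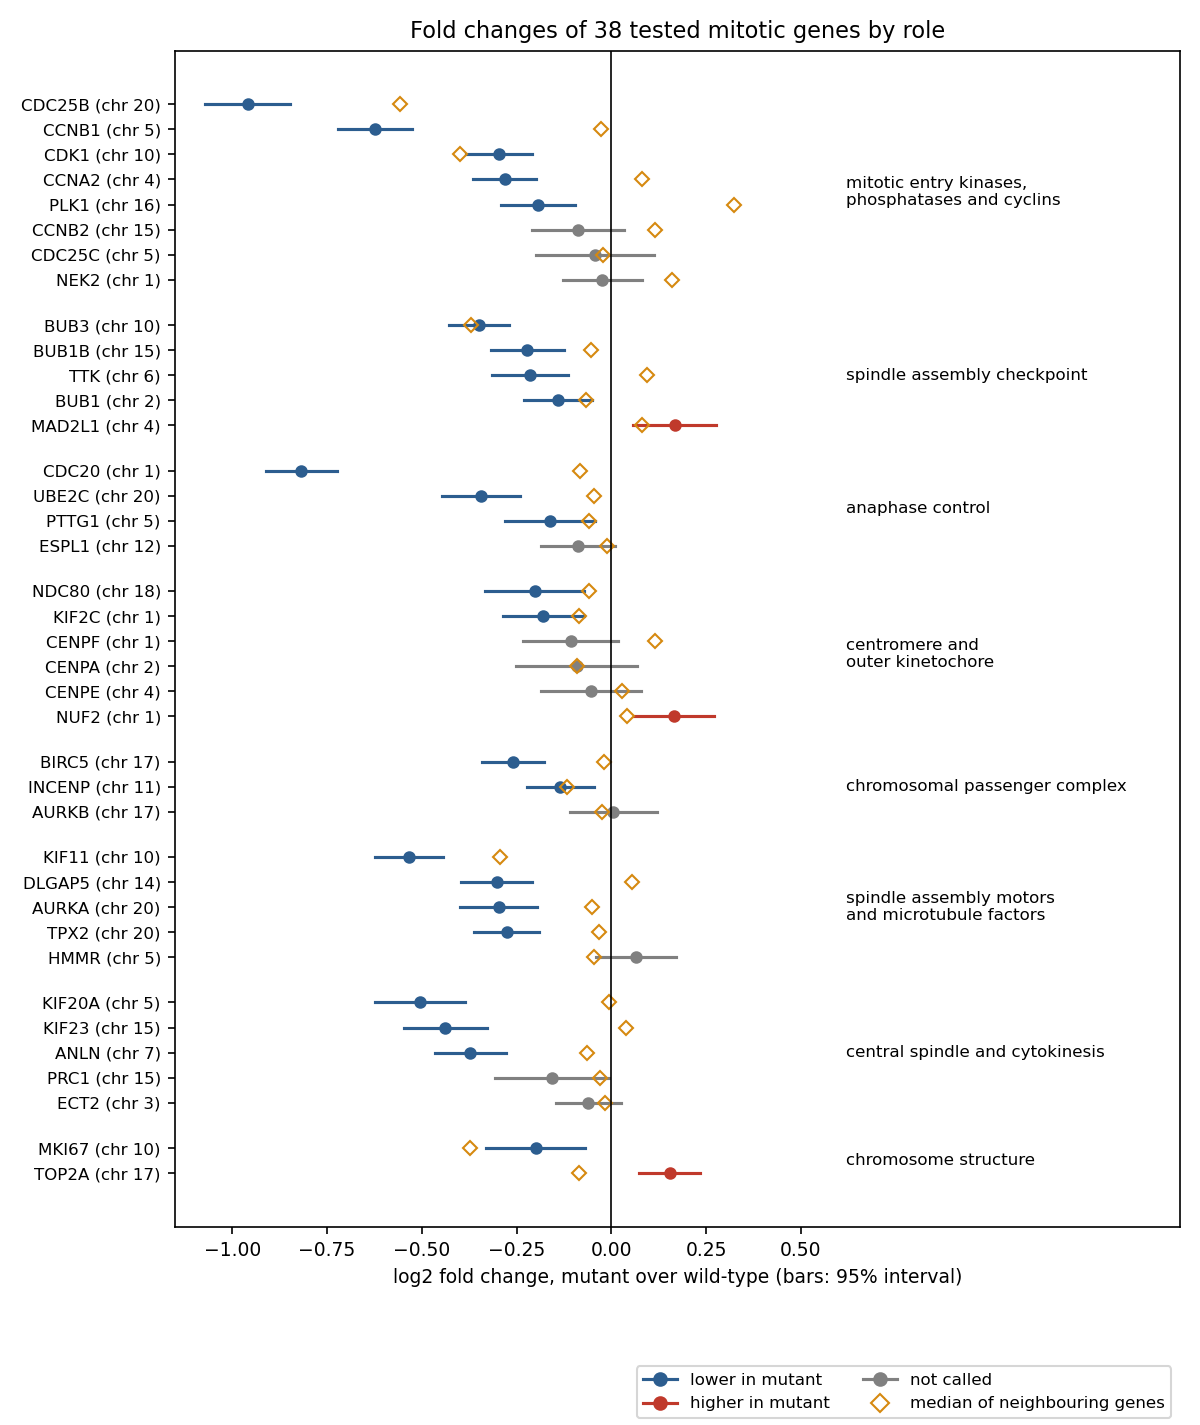
Log2 fold change, mutant over wild-type, of 38 members by role, with 95% intervals and the median of neighbouring tested genes (diamonds). CDC25B, CDC20 and CCNB1 lie farthest to the left, and MAD2L1, NUF2 and TOP2A are the 3 called higher.

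Where a gene lies on its chromosome went along with part of these differences. Tested genes on chromosome 10 that are not members had a median log2 fold change of -0.36, those on chromosome 16 had 0.29, those on chromosome 20 had -0.12 and those on chromosome 22 had -0.16. Members on these chromosomes were BUB3, CDK1, KIF11 and MKI67 on chromosome 10, PLK1 on 16, and CDC25B, UBE2C, AURKA and TPX2 on 20. All 9 were lower, against 28.7% of tested genes over every chromosome. The share among all tested genes of these chromosomes alone was not counted, so 28.7% is not a matched base for these 9. On the other chromosomes 15 of 29 tested members were lower (51.7%) and 3 higher (10.3%), against 27.4% and 29.1% of all tested genes there. The median of those 29 members was -0.14.

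Each tested member was also set beside up to 25 tested genes on either side of it that are not members. MKI67 had 39 such neighbours in all and NDC80 had 33. CDK1, BUB3 and MKI67 were not below the medians of their neighbours, which were -0.40, -0.37 and -0.37. KIF11 was below its neighbours' median of -0.29, and CDC25B was below its neighbours' median of -0.56. PLK1 was lower although its neighbours' median was 0.32. CDC20 and CCNB1 stood among neighbours with medians of -0.08 and -0.03, and each was lower than 98% of them. Over all 38 tested members, 30 lay below the median of their neighbours. Of the 9 on chromosomes 10, 16, 20 and 22, 6 did so, and of the 4 on chromosome 10, 1 did so. The part of chromosome-wide differences in the members' results was not tested further.

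Related genes of mitosis were read from the same fit, in lists drawn up by function. Over all 177 tested genes of 9 such lists, 85 were lower (48.0%) and 33 higher (18.6%) in mutant cells. Their median log2 fold change was -0.13. Among all tested genes 28.7% were lower and 29.4% higher, and the counts of each list stand beside those shares. The anaphase-promoting complex and its regulators held 11 lower (64.7%) and 1 higher (5.88%) of 17. Among these, ANAPC16, ANAPC2, ANAPC15 and ANAPC7, all subunits of the ligase, had log2 fold changes of -0.36, -0.32, -0.58 and -0.21. ANAPC16 lies on chromosome 10, and the median of its neighbours was -0.35. Regulators of mitotic entry and exit held 13 lower and 1 higher of 20. In that list GTSE1, a microtubule protein of G2 phase, averaged 15.1 ± 0.40 FPKM in mutant cells and 27.0 ± 0.99 FPKM in wild-type cells (SD, n = 3 each). It lies on chromosome 22 and had a log2 fold change of -0.87 among neighbours with a median of -0.22. CDCA2, which targets a phosphatase to chromosomes, had a log2 fold change of -0.80, CDCA3 had -0.66 and PPP1CA, a catalytic subunit of protein phosphatase 1, had -0.36.

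Cohesin and condensin held 12 lower (52.2%) and 5 higher (21.7%) of 23. WAPL, which releases cohesin from chromosomes, averaged 16.04 ± 0.17 FPKM in mutant cells and 29.95 ± 1.47 FPKM in wild-type cells (SD, n = 3 each), a log2 fold change of -0.93. It lies on chromosome 10, as does SMC3, a core cohesin subunit, at -0.47, and the medians of their neighbours were -0.27 for WAPL and -0.33 for SMC3. STAG1, a cohesin subunit on chromosome 3, had -0.77. NCAPH2, a condensin II subunit on chromosome 22, had -0.55 among neighbours with a median of -0.24.

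The inner centromere and kinetochore held 14 lower (43.8%) and 7 higher (21.9%) of 32. ZWINT, a kinetochore protein on chromosome 10, had a log2 fold change of -0.58 among neighbours with a median of -0.39, CENPB on chromosome 20 had -0.64 among neighbours with a median of -0.56, and CENPI on the X chromosome had -0.44. CENPH, a partner of CENPI in the inner kinetochore, was higher at 0.60. Other checkpoint genes held 4 lower (57.1%) and 1 higher (14.3%) of 7 tested. MAD2L1BP, which helps switch the checkpoint off, had -0.48, TRIP13, the ATPase that takes MAD2 complexes apart, had -0.26, ZW10, which brings dynein to kinetochores, had -0.24, and CHAMP1 had -0.23.

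Spindle motors and microtubule factors held 16 lower (48.5%) and 8 higher (24.2%) of 33. CLASP2, which stabilises microtubule ends, was higher at 0.35, while KIF20B, TUBGCP2 and TACC3 had -0.37, -0.40 and -0.36. KIF20B and TUBGCP2 lie on chromosome 10, where the medians of their neighbours were -0.27 and -0.37. Cytokinesis genes held 5 lower (38.5%) and 3 higher (23.1%) of 13, against 28.7% and 29.4% of all tested genes. CEP55, an abscission factor on chromosome 10 whose neighbours had a median of -0.30, had a log2 fold change of -0.59. MYH9 had -0.37, ARF6 had -0.29 and CIT, a kinase of the contractile ring, had 0.33. Centriole duplication held 3 lower and 2 higher of 11, near the share of all tested genes called lower, with CETN3 at 0.48, CETN2 at -0.33, CEP152 at 0.21 and CEP135 at -0.14.

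Transcription factors of mitotic genes held 7 lower (33.3%) and 5 higher (23.8%) of 21, near the 28.7% and 29.4% of all tested genes. FOXM1, an activator of G2 and mitotic genes, had 30.31, 27.99 and 27.31 FPKM in mutant cells and 34.56, 35.61 and 35.73 FPKM in wild-type cells. MYBL2, its partner at CHR promoters, had 68.56, 65.93 and 62.09 FPKM in mutant cells and 82.07, 80.28 and 84.81 FPKM in wild-type cells. Both had separate groups, with log2 fold changes of -0.34 for FOXM1 and -0.36 for MYBL2 (edgeR adjusted p = 5.88e-06 and 1.62e-06).

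NFYA, a subunit of the CCAAT-binding factor, had 10.67, 11.17 and 10.76 FPKM in mutant cells and 14.07, 15.81 and 15.52 FPKM in wild-type cells, a log2 fold change of -0.51. RBL2, the pocket protein p130 of the DREAM complex, had 18.15, 17.52 and 18.19 FPKM in mutant cells and 10.10, 8.70 and 9.81 FPKM in wild-type cells. RBL2 was higher at 0.88 and lies on chromosome 16, where the median of its neighbours was 0.33.

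For comparison, the list of S phase genes held 14 lower (33.3%) and 10 higher (23.8%) of 42, against 28.7% and 29.4% of all tested genes, with a median of -0.05. PCNA, the replication clamp, had a log2 fold change of -0.60 among neighbours with a median of -0.53, MCM5, a helicase subunit, had -0.46 and DTL had 0.41. HELLS, on chromosome 10, had -0.40 among neighbours with a median of -0.36. The difference between the mitotic and the S phase list was not tested.

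**Figure D3:**
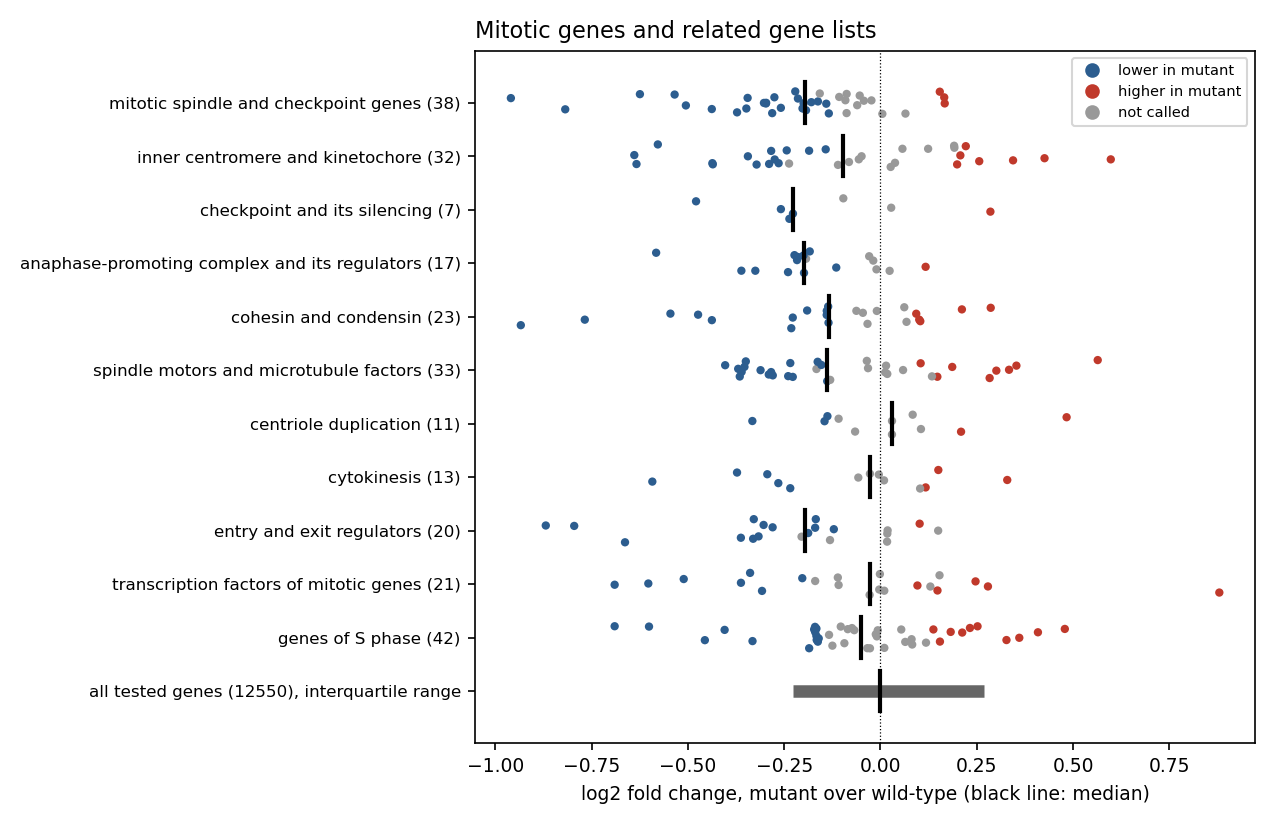
Log2 fold change, mutant over wild-type, of each tested gene in the mitotic list, 9 related lists and the S phase list, with the list's median as a black line and the interquartile range of all tested genes as a grey bar. The median of the mitotic list is -0.20 and that of the S phase list -0.05.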

How the data were processed

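Poly(A) RNA of 3 mutant and 3 wild-type HEK293 libraries was sequenced as paired ends. The tools behind the counts were cutadapt, HISAT2 (2.0.1) and HTSeq with the GRCh38 build, per the submitters' processing notes. The deposited table holds a raw count and an FPKM value per gene and library, per the file headers. FPKM recomputed from counts, deposited lengths and library totals was within 0.011 of the deposited value for 100% of values. The sources used here give neither the annotation release nor the strand setting of counting.

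Genes whose FPKM averaged 1 or more were tested on the counts with edgeR 4.0.16 (TMM scaling, factors of 0.980 to 1.017, quasi-likelihood F-test, two-sided, genotype as the single factor, R 4.3.3), with Benjamini-Hochberg adjustment over all 12550 genes and a threshold of 0.05. Fold changes are mutant over wild-type. SE was computed from the log2 fold change and the F statistic, and the 95% intervals from that SE. The script was tested on simulated data. The titles number the libraries as replicates within each group, and p-values measure the spread between these libraries. Because the clone origin is not given, that spread need not be the spread between separately edited lines. No 2 libraries of a group were duplicates (chi-square over its degrees of freedom, 2.19 or more). An exact test of 3 against 3 cannot give a p below 0.1 and was not used.

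The members and the gene lists were chosen with earlier results of these data known, and lists are described by counts and medians without a test. All members are named, and from each related list and the S phase list up to 4 genes with the smallest adjusted p, with FOXM1 and MYBL2 added. Genes and ratios outside that rule were chosen after their values were seen. Promoter sequences are those of RefSeq on GRCh38.p14. Alternatives were other scalings, DESeq2 1.42.0, limma 3.58.1 on log2(FPKM + 1) and log2(FPKM + 0.1), other filters, a replicate block, each library left out, and the fit without chromosomes 10, 16, 20 and 22. Leaving out members that overlap another counted gene was chosen after seeing the data.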

Additional observations from a re-analysis of the deposited data

How the results depend on the processing

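The number of members lower in mutant cells was 24 in the reported fit, 20 to 26 under the other scalings, tests and filters, and 23 to 26 with each library left out. Without chromosomes 10, 16, 20 and 22 it was 15, because 9 members were removed. The number higher was 3, or 2 with no filter on low values, where NUF2 was lost (edgeR adjusted p = 0.103). The median log2 fold change of the members was -0.159 with library totals as scaling, -0.155 with upper quartile scaling, -0.155 with limma on log2(FPKM + 1), -0.161 with limma on log2(FPKM + 0.1), -0.237 with no filter, -0.149 where only genes averaging 5 FPKM or more were tested, and -0.146 without the 4 chromosomes. With library totals and with upper quartile scaling the median of all genes was 0.0363 and 0.0404, against -0.000708, and the share of called genes that were higher was 56.9% and 57.5%, against 50.6%. With that higher minimum 7304 genes were tested and 4597 were called, against 7284. No fold change of a called member changed sign in the 16 other settings. Of 27 called members 21 were called in every setting that tested them, and BUB1, INCENP, MKI67, NDC80, NUF2 and PTTG1 were not.

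With the replicate number as a block, 24 members were lower, 3 were higher, 7069 genes were called and the median was -0.194. Deviations of same-numbered libraries correlated at 0.0039, -0.0435 and -0.0128, so the numbers were not treated as pairing the libraries. Of the members, 9 overlap a gene with 60 or more counts, and without them 20 members were lower, 2 were higher and the median was -0.201. NUSAP1 was left out of the reported fit by the minimum of 1 on the mean FPKM.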
